A study of Mus musculus with 54 samples.

Results

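The genes described here are 34 genes of cholesterol and fatty acid synthesis and of its control by the sterol regulatory element binding proteins (SREBP). They were chosen by their symbols, with earlier results of these data known. All 34 were found among the 39179 gene identifiers of the count tables, of which 37607 had a symbol in the annotation. In role order, 3 genes supply acetyl-CoA and NADPH, 7 lead from acetyl-CoA to farnesyl diphosphate, 11 from squalene to cholesterol, 6 code for the SREBP, their escort, their retention proteins and a sterol carrier, and 7 make, elongate or desaturate fatty acids. All samples were peritoneal macrophages of C57BL/6 mice, collected after thioglycolate injection. In the polarization experiment, cells of 3 mice were kept for 24 h without stimulus (M0), with LPS (100 ng/ml) plus IFNγ (50 ng/ml), called M1-like, or with IL-4 at 10 ng/ml (M2-like), and each mouse and condition was sequenced in 2 technical replicates (single-end, 50 nt). In the reprogramming experiment (paired-end, 150 nt), 12 conditions had 3 replicates each: M0, M1-like and M2-like macrophages untransfected, the same 3 after mock transfection with the reagent alone, and M2-like macrophages with a negative control siRNA pool, with a pool against E2f1, Myc, Pparg or Stat6, or with the 4 pools combined, which gives the induced M1-like (iM1) macrophages. Transfection followed 24 h of polarization, and the transfected cells were harvested 48 h later, without IL-4 in that time. The methods give 24 h of polarization for macrophages profiled without transfection. The labels give no time for the untransfected samples of the reprogramming experiment. The labels do not tie the replicates of the reprogramming experiment to animals, although the methods call those of the polarized and the iM1 macrophages biological, and p-values there measure the spread between these samples. By the methods, the Myc siRNA came from another supplier than the other targeted pools. The methods do not name the supplier of the negative pool. Supplier and target cannot be told apart for the Myc pool, nor for its share in the combined pool.

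Cholesterol is built from acetyl-CoA through the mevalonate pathway, squalene and lanosterol, and fatty acids are built from acetyl-CoA by acetyl-CoA carboxylase and fatty acid synthase before elongases and desaturases modify them. The SREBP are transcription factors that are made as membrane proteins of the endoplasmic reticulum. When sterols are scarce, SCAP escorts them to the Golgi for cleavage, and when sterols are plentiful the INSIG proteins retain SCAP and SREBP in the endoplasmic reticulum. Liver X receptors (LXR), which sense oxysterols, raise transcription of Srebf1 and of the stearoyl-CoA desaturases in macrophages.

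A RefSeq promoter (GRCm38.p6, 250 bases before to 50 bases after the start) was found for 27 of the 34 genes. Some genes had more than 1, which gave 36 promoters. None was at hand for Fads1, Fdft1, Fdps, Scd1, Scd2, Sqle and Stard4. A stretch of 150 bases that lies before every annotated exon is shown for Hmgcs1, Mvk, Fasn, Insig1 and Insig2, because Hmgcs1, Mvk and Fasn fell in M1-like macrophages whereas Insig2 rose there, and Insig1 is the partner of Insig2. Capitals mark the sterol regulatory element TCACNCCAC, the NF-Y box CCAAT and the Sp1 box GGGCGG on either strand. The stretches come from chr13:119690201-119690350 (plus strand), chr5:114444119-114444268 (plus), chr11:120824548-120824697 (minus), chr5:28071213-28071362 (plus) and chr1:121332590-121332739 (minus). That of Insig1 ends 49 bases before the RefSeq start, and the others end at it.
Hmgcs1: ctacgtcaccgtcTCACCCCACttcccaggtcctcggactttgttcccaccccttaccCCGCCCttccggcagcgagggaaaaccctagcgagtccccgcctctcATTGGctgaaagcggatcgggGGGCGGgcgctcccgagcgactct
Mvk: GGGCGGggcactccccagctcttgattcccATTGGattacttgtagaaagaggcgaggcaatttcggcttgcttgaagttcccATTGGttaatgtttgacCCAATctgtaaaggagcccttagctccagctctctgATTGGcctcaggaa
Fasn: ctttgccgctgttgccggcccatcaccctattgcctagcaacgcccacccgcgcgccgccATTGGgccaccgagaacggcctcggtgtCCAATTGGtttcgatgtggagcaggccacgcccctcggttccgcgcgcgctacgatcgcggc
Insig1: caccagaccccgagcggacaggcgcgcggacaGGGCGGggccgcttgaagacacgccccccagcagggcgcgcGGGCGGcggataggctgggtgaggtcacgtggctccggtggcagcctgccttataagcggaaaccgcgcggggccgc
Insig2: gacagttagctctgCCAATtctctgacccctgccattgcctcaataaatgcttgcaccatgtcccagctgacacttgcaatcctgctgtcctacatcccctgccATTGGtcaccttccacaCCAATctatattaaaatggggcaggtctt
Among the shown stretches, that of Hmgcs1 held the sterol element, beginning 137 bases before the start, with 1 NF-Y box and 2 Sp1 boxes. The stretch of Mvk held 4 NF-Y boxes and 1 Sp1 box, and that of Insig1 held 2 Sp1 boxes. Those of Fasn and Insig2 held 3 NF-Y boxes each, with 2 boxes of Fasn sharing letters. Other promoters of Insig2, further downstream and not shown, held an Sp1 box and no NF-Y box. Over whole promoters, searched on both strands, the NF-Y box was in 22 of the 27 genes (81.5%, against 41.1% of 27025 genes) and the Sp1 box in 23 (85.2%, against 38.2%). The E-box CACGTG was in 5 of the 27 (18.5%, against 8.09%), namely in Dhcr7, Hsd17b7, Insig1, Sc5d and Scap. The sterol element TCACNCCAC was in Hmgcs1 alone (3.7%, against 1.44%), a longer form of that element in none of the 27 (against 0.0999%), and the LXR response element in none (against 0.0148%). These letters describe the windows and were not tested.

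Read counts per gene were tested by the two-sided quasi-likelihood test of edgeR, with 1 model per experiment and Benjamini-Hochberg adjustment over all genes tested, and a gene was called at an adjusted p-value under 0.05. Levels are given as CPM, read counts scaled by TMM to a common library size, and differences as log2 fold changes ± SE. Most genes with sample values were named for the largest called changes. Separate groups in such genes therefore describe the values and add no support to the test. The share of all genes with separate groups was not counted. The 9 summed samples of the polarization experiment held 39577911 to 59443987 counted reads and the 36 libraries of the reprogramming experiment 13421854 to 19704195. The experiments were scaled separately, so that their levels are compared only within an experiment. The 6 macrophage markers summed to 6090 to 18200 CPM and were lowest in M1-like macrophages of each experiment, whereas the 4 T cell markers summed to at most 1.5 CPM. The stimuli showed in the check genes, since Nos2, Il12b and Cxcl9 were higher in M1-like than in M0 macrophages in all 3 comparisons, and Chil3, Retnla and Mrc1 were higher with IL-4 in the polarization experiment and in untransfected macrophages. The 4 fibroblast markers summed to 9.11 to 31.8 CPM in the polarization experiment and, in the reprogramming experiment, to 20.1 to 39.2 CPM in M1-like mock against 171 to 271 CPM in M0 mock macrophages. In 9 of the 12 conditions of the reprogramming experiment, replicate 3 had the highest summed level of the 34 genes. Exons of Fdft1 overlap Ctsb on the opposite strand (18.3% of its length), those of Scap overlap 5830462I19Rik (13.2%) and those of Tm7sf2 overlap Vps51 (12.1%), and the strand setting of the counting is not given in the sources used here. Scd1 and Scd2 are close paralogs, and reads that fit both could be assigned to either or dropped.

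Per length of exon, Acly, which splits citrate into acetyl-CoA, had the highest level in M0 macrophages of both experiments, with 36.1 ± 1.22 CPM per kb for polarization and 47.9 ± 1.47 for reprogramming (mean ± SD, n = 3). In the polarization experiment Hmgcs1 (19.6 ± 0.510 CPM per kb) and Srebf2 (18.5 ± 1.12) came next and did not differ beyond their spread. The fatty acid genes ranged widely, with 1.56 ± 0.0409 CPM per kb for Fasn, 0.636 ± 0.0580 for Scd1 and 0.0351 ± 0.0172 for Fads2, against 5.09 ± 0.362 for Scd2 and 11.03 ± 0.241 for Fads1. Summed over all 34 genes, the polarization experiment had 1234 ± 40.5 CPM in M0, 843 ± 78.9 CPM for M1-like and 1095 ± 8.51 CPM for M2-like macrophages (mean ± SD, n = 3). In the reprogramming experiment untransfected M0 macrophages had 1723 ± 17.5 CPM, M1-like 1069 ± 44.5 CPM and M2-like 2786 ± 219 CPM, and the same groups had 2359 ± 200.4, 1035 ± 13.6 and 2639 ± 351 CPM after mock transfection. With siRNA it stepped down from 1832 ± 230.1 CPM with the negative pool to 1182 ± 22.1 with the combined and 1194 ± 35.7 with the Myc pool, with 1622 ± 181 for Pparg, 1488 ± 172 for E2f1 and 1652 ± 109 for Stat6. Abundant genes weigh most in this sum. Scd2 alone had 44.1 ± 2.465 CPM in untransfected M0 and 382 ± 43.5 CPM in untransfected M2-like macrophages of the reprogramming experiment. The map of mean levels sets all 34 genes side by side over the 15 conditions.

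**Figure D1:**
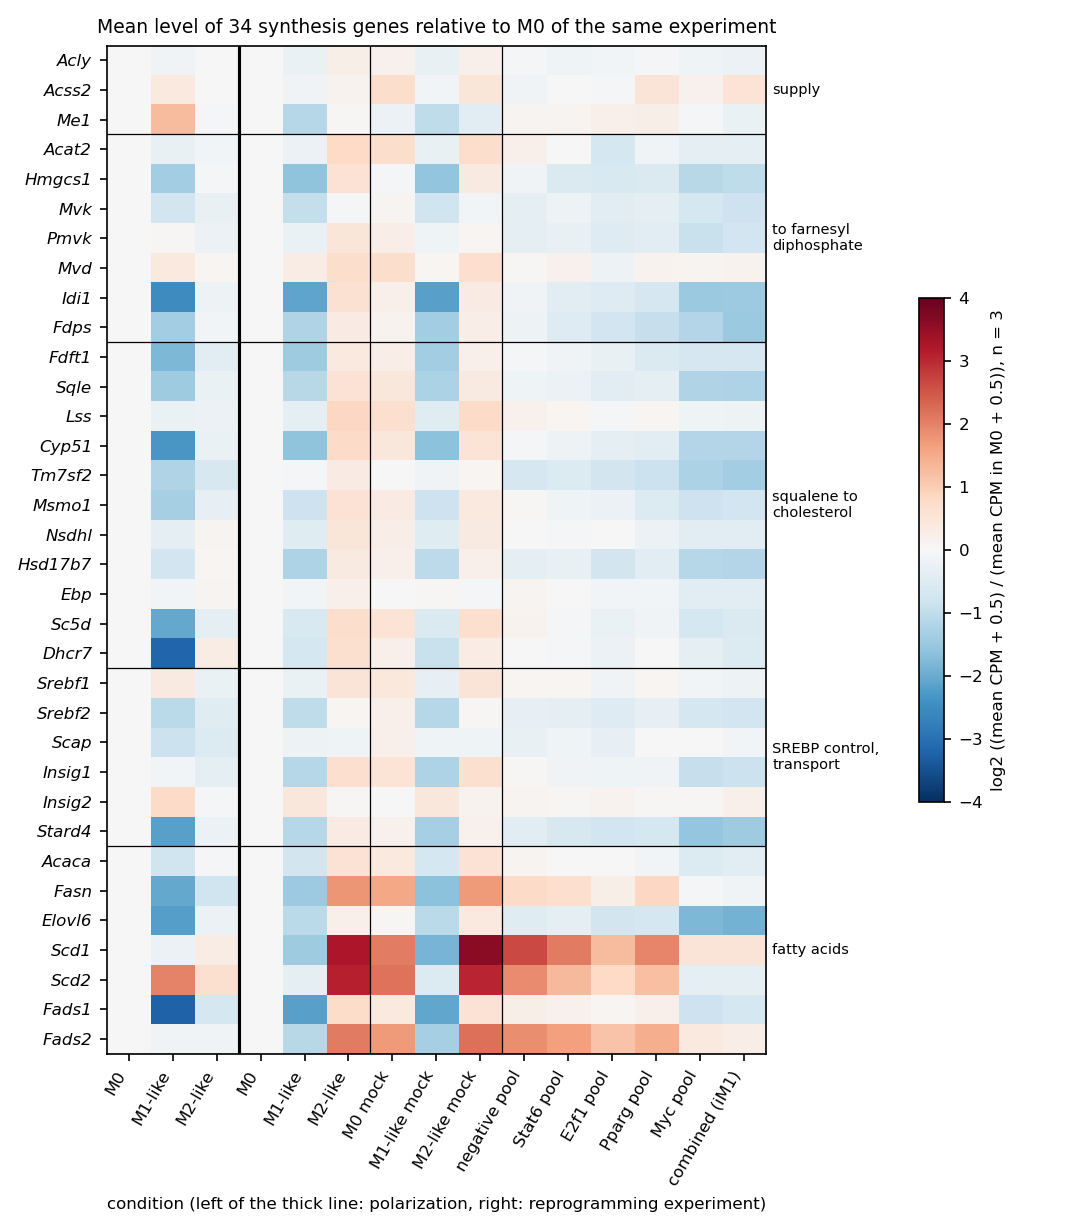
Mean level of the 34 genes (rows, in role order) in the 15 conditions (columns), as log2 of the mean CPM plus 0.5 over the mean CPM plus 0.5 in M0 macrophages of the same experiment (n = 3, colour scale ends at 4). M1-like columns are blue for most sterol genes, and Scd1, Scd2 and Fads2 are red in M2-like macrophages of the reprogramming experiment.

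The question of the polarization experiment was how M1-like and M2-like activation set the metabolism of macrophages. After 24 h of LPS and IFNγ, the sterol pathway was lower at most of its steps, several times so at Idi1, Cyp51, Sc5d and Dhcr7. Of 33 genes tested (Fads2 was under the filter, at 0 to 0.180 CPM), 23 were lower and 6 higher in M1-like than in M0 macrophages. Over all genes 72.9% were called, 35.4% higher and 37.5% lower. The median log2 fold change of these 33 genes was -0.83, against -0.037 over all genes tested. With total counts in place of TMM the median of all genes moved to -0.465 and the share of called genes that were higher from 48.5% to 25.3%. In bulk samples, fewer cells of a type and less RNA per cell cannot be told apart.

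On the way from acetyl-CoA to farnesyl diphosphate, 5 of 7 genes were lower. Idi1 (ENSMUSG00000058258, GRCm38 chromosome 13, 8885501 to 8892451, plus strand), which isomerizes isopentenyl diphosphate, had 19.1, 17.9 and 18.6 CPM in the 3 M0 samples and 2.95, 3.58 and 1.997 CPM in M1-like macrophages (log2 fold change -2.72 ± 0.20, adjusted p = 1.16e-07). Hmgcs1 (ENSMUSG00000093930, GRCm38 chromosome 13, 119690379 to 119708260, plus strand), the cytosolic HMG-CoA synthase, fell from 92.9, 88.5 and 89.3 to 35.8, 35.5 and 32.1 CPM (log2 fold change -1.39 ± 0.091, adjusted p = 3.9e-08). Fdps, which makes farnesyl diphosphate, fell from 17.4, 16.2 and 15.8 to 6.24, 6.62 and 5.06 CPM (log2 fold change -1.47 ± 0.100, adjusted p = 5.45e-08). The M0 and M1-like samples of these 3 genes did not overlap. Mvk (mevalonate kinase, log2 fold change -0.78) and Acat2 (cytosolic thiolase, -0.30) were lower as well. Against them, Mvd, the mevalonate diphosphate decarboxylase, had 21.2, 18.5 and 18.4 CPM in M0 and 24.6, 25.5 and 25.9 CPM in M1-like macrophages (log2 fold change 0.39 ± 0.088, adjusted p = 0.00167). This rise turned to -0.039 with total counts. Pmvk, the phosphomevalonate kinase between Mvk and Mvd, was not called (log2 fold change 0.063 ± 0.11, adjusted p = 0.614).

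From squalene to cholesterol, 10 of 11 genes were lower and none higher. Dhcr7, which catalyses the last reduction to cholesterol, had 42.0, 37.3 and 38.3 CPM in M0 and 3.94, 3.78 and 4.02 CPM in M1-like macrophages (log2 fold change -3.32 ± 0.091, adjusted p = 1.23e-11). Cyp51, the lanosterol demethylase, fell from 46.0, 43.9 and 43.1 to 9.29, 9.94 and 6.05 CPM (log2 fold change -2.40 ± 0.15, adjusted p = 2.34e-08). Sc5d, the lathosterol oxidase, fell from 47.0, 45.6 and 44.1 to 11.8, 10.9 and 9.28 CPM (log2 fold change -2.10 ± 0.10, adjusted p = 2.1e-09). No M1-like sample reached an M0 sample at these 3 steps. Fdft1 (squalene synthase, -1.89), Sqle (squalene epoxidase, -1.45), Tm7sf2 (a sterol reductase, -1.42) and Msmo1 (sterol methyl oxidase, -1.33) were more than 1 log2 unit lower, and Hsd17b7, Nsdhl and Lss, the lanosterol synthase, were lower by less. Ebp, the sterol isomerase, was not called (log2 fold change -0.10 ± 0.053, adjusted p = 0.100).

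Among the control genes, Srebf2 (ENSMUSG00000022463, GRCm38 chromosome 15, 82147181 to 82205379, plus strand), whose product governs mainly the sterol genes, and Srebf1 (ENSMUSG00000020538, GRCm38 chromosome 11, 60199089 to 60222581, minus strand), whose product governs mainly the fatty acid genes, went opposite ways. Srebf2 had 142, 132 and 126 CPM in M0 and 65.8, 65.0 and 56.4 CPM in M1-like macrophages (log2 fold change -1.09 ± 0.095, adjusted p = 5.32e-07), without overlap. Srebf1 had 58.2, 60.9 and 56.5 against 80.2, 71.1 and 72.7 CPM (log2 fold change 0.35 ± 0.11, adjusted p = 0.0133), and its value was -0.077 with total counts. Scap fell from 39.6, 38.2 and 37.5 to 20.9, 21.4 and 20.3 CPM (log2 fold change -0.88 ± 0.095, adjusted p = 3.94e-06), and Stard4, a cytosolic sterol carrier, from 30.8, 31.0 and 29.6 to 7.78, 6.62 and 4.66 CPM (log2 fold change -2.27 ± 0.14, adjusted p = 2.64e-08). Both were lower in every M1-like than in every M0 sample. Of the retention proteins, Insig2 (ENSMUSG00000003721, GRCm38 chromosome 1, 121304353 to 121332589, minus strand) rose from 28.5, 28.9 and 30.2 to 56.6, 48.8 and 45.2 CPM (log2 fold change 0.78 ± 0.084, adjusted p = 3.91e-06), also without overlap. Insig1 (ENSMUSG00000045294, GRCm38 chromosome 5, 28071363 to 28078662, plus strand), itself a target of SREBP, had 52.7, 47.1 and 48.2 CPM in M0 and 51.3, 47.4 and 37.6 CPM in M1-like samples, which overlapped (log2 fold change -0.12 ± 0.100, adjusted p = 0.295).

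Of the 6 fatty acid genes tested, 4 were lower and 1 higher. Fads1, the desaturase that makes arachidonic acid, had 54.1, 51.8 and 53.3 CPM in M0 and 5.27, 5.72 and 4.74 CPM in M1-like macrophages (log2 fold change -3.34 ± 0.078, adjusted p = 3.26e-12). Elovl6, which elongates palmitate, fell from 4.12, 3.10 and 3.84 to 0.351, 0.587 and 0.312 CPM (log2 fold change -3.15 ± 0.22, adjusted p = 5.73e-08). Fasn (ENSMUSG00000025153, GRCm38 chromosome 11, 120805846 to 120824547, minus strand), the fatty acid synthase, fell from 17.3, 16.6 and 17.4 to 3.51, 3.93 and 3.79 CPM (log2 fold change -2.19 ± 0.10, adjusted p = 1.74e-09). These 3 genes had separate M0 and M1-like samples, and Acaca, the acetyl-CoA carboxylase, was lower by less (-0.82). Against them, Scd2 (ENSMUSG00000025203, GRCm38 chromosome 19, 44293674 to 44306864, plus strand), a stearoyl-CoA desaturase, rose from 29.3, 28.6 and 25.6 to 149, 109 and 79.9 CPM (log2 fold change 2.01 ± 0.19, adjusted p = 9.38e-07), with a wide spread among the M1-like samples that stayed above M0. Its paralog Scd1 (ENSMUSG00000037071, GRCm38 chromosome 19, 44394455 to 44407879, minus strand) was low in both groups, at 3.42, 3.04 and 2.87 CPM in M0 and 3.11, 2.38 and 2.31 CPM in M1-like samples, and was not called (log2 fold change -0.26 ± 0.19, adjusted p = 0.219). In the supply of building blocks, Me1, the NADPH-making malic enzyme, rose from 2.44, 2.18 and 3.24 to 6.48, 7.15 and 7.24 CPM (log2 fold change 1.41 ± 0.15, adjusted p = 2.92e-06). Acss2, the cytosolic acetyl-CoA synthetase, rose from 6.44, 5.87 and 4.78 to 8.35, 7.76 and 6.91 CPM (log2 fold change 0.43 ± 0.13, adjusted p = 0.0113), which was 0.00082 with total counts. Acly was lower by 0.14 log2 units, the smallest of the called differences.

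**Figure D2:**
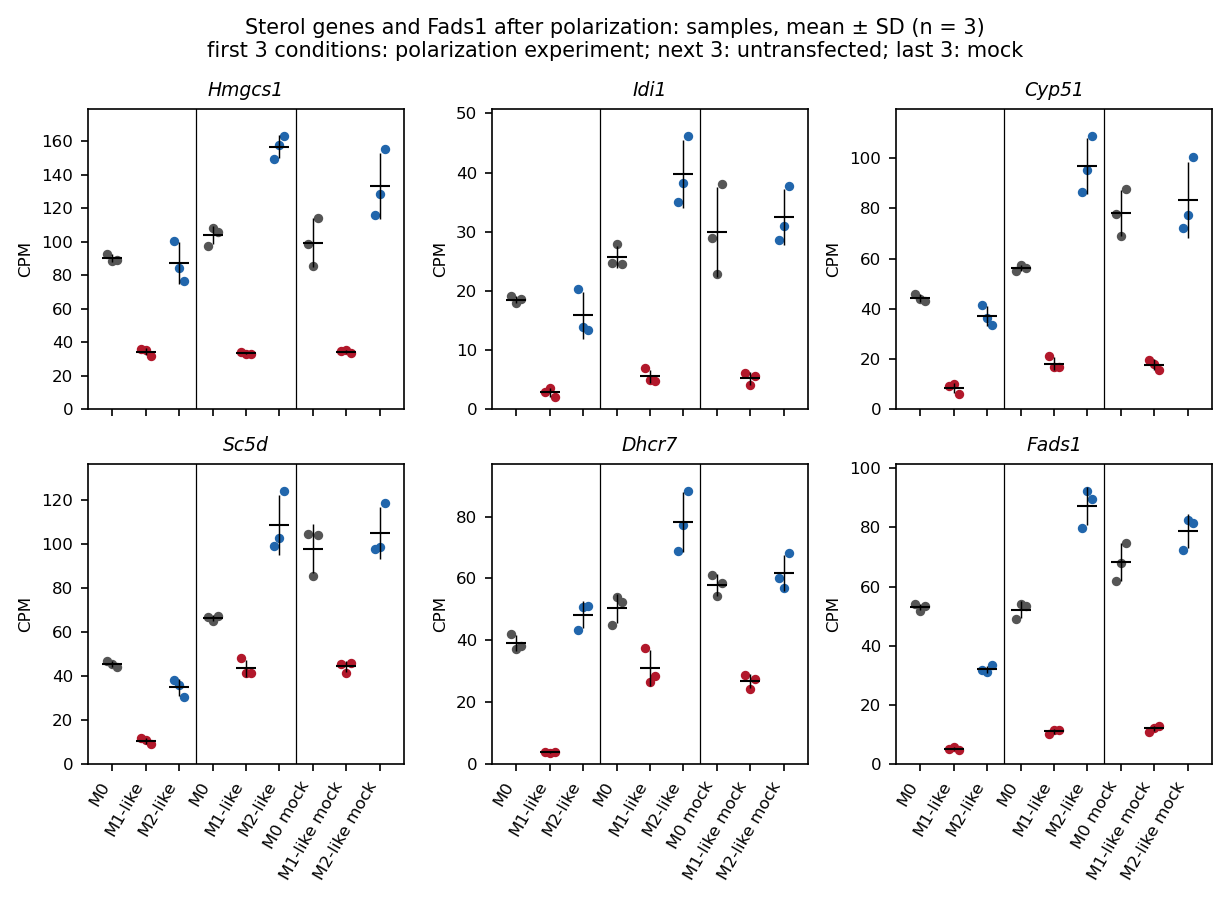
CPM of 5 sterol genes and Fads1 in each sample (points), with the mean (horizontal line) and SD (vertical bar) of n = 3, for M0 (grey), M1-like (red) and M2-like (blue) macrophages of the polarization experiment and, without and with mock transfection, of the reprogramming experiment. In each panel the M1-like samples lie below the M0 and M2-like samples of the same set.

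In the reprogramming experiment most sterol genes were lower in M1-like macrophages both with and without mock transfection. Of 34 genes tested, 25 were lower and 1 higher in untransfected M1-like than in M0 macrophages (57.7% of all genes called, 29% higher and 28.7% lower), and 31 were lower and 1 higher in M1-like mock than in M0 mock macrophages (60.4% of all genes called, 30.3% higher and 30% lower). The medians were -0.90 and -1.23. With total counts the share of higher genes among all called genes moved from 50.2% to 68.1% in the mock comparison. In all 3 comparisons of M1-like with M0 macrophages 20 of the 34 genes were lower and Insig2 alone was higher. In the single comparisons 37.5%, 28.7% and 30% of all genes were lower and 35.4%, 29% and 30.3% higher. The share of all genes with these patterns in all 3 comparisons was not counted, so the counts of members cannot be set against it.

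Idi1 had 29.0, 22.8 and 38.0 CPM in M0 mock and 6.14, 4.03 and 5.63 CPM in M1-like mock macrophages (log2 fold change -2.51 ± 0.22, adjusted p = 1.25e-11). Fdps (-1.72) and Hmgcs1 (-1.53) followed among the early steps, all 7 of which were lower. Mvd, which had been higher in the polarization experiment, fell from 70.9, 66.9 and 83.6 to 48.8, 46.5 and 47.7 CPM after mock transfection (log2 fold change -0.63 ± 0.16, adjusted p = 0.000883), but was not called between untransfected macrophages (0.29). Among the late steps, Cyp51 fell from 77.6, 69.0 and 87.5 to 19.7, 18.0 and 15.4 CPM (log2 fold change -2.14 ± 0.17, adjusted p = 1.39e-12), Sqle from 81.0, 76.7 and 87.0 to 28.8, 22.5 and 22.8 CPM (log2 fold change -1.72 ± 0.14, adjusted p = 2.29e-12). Neither gene had overlapping groups. Dhcr7 fell by 1.11 log2 units and Sc5d by 1.14, where the polarization experiment had -3.32 and -2.10. Tm7sf2 (-0.13) and Ebp (0.065) were not called. Whether the experiments differ in these values was not tested, since read type and the culture time of the mock samples differ together. The labels do not say whether the mice differ too.

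The largest differences between M1-like and M2-like mock macrophages were those of fatty acid genes. All 7 were lower in M1-like mock than in M0 mock macrophages and than in M2-like mock macrophages. Scd1 had 26.6, 21.6 and 33.4 CPM in M0 mock, 80.8, 73.2 and 90.0 CPM in M2-like mock and 1.09, 1.13 and 1.80 CPM in M1-like mock macrophages (M1-like against M2-like, log2 fold change -5.93 ± 0.29, adjusted p = 8.36e-18). Scd2 had 189.6, 138 and 274 CPM in M0, 333, 341 and 425 CPM in M2-like and 35.1, 25.4 and 29.7 CPM in M1-like mock samples (log2 fold change -3.61 ± 0.25, adjusted p = 6.32e-14). Fasn had 106, 107 and 144 CPM in M0, 117, 113 and 171 CPM in M2-like and 11.8, 12.8 and 13.5 CPM in M1-like mock samples (log2 fold change -3.39 ± 0.19, adjusted p = 2.28e-16). In all 3 genes the M1-like samples were the lowest and did not touch the others. Fads2, which feeds Fads1 in the synthesis of polyunsaturated fatty acids, had 5.12, 5.89 and 8.504 CPM in M2-like mock macrophages and 0, 0.0982 and 0.232 CPM in M1-like mock macrophages, where a sample without a read leaves no exact fold. Fads1 fell from 61.8, 68.0 and 74.8 CPM in M0 mock to 11.04, 12.4 and 12.9 CPM (log2 fold change -2.50 ± 0.10, adjusted p = 1.39e-19). Elovl6 (-1.28) and Acaca (-1.09) were lower too. Of the 34 genes, 28 were lower and 1 higher in mock transfected M1-like macrophages when set against mock transfected M2-like ones (60.7% of all genes called, 29.8% lower and 30.9% higher). Without transfection 30 were lower and 1 higher (61.5% called, 30.2% lower and 31.3% higher), and in the polarization experiment 23 were lower and 8 higher (72.6% called, 38.1% lower and 34.6% higher). With total counts the higher share of all called genes went from 50.9% to 68.6% with mock, from 50.8% to 66.5% without transfection and from 47.6% to 24.8% in the polarization experiment.

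Scd2 and Me1 behaved differently in the polarization and the reprogramming experiment, without a test of that difference. Scd2, higher in M1-like macrophages of the polarization experiment, had 43.6, 46.8 and 42.0 CPM in untransfected M0 and 45.4, 24.6 and 31.3 CPM in untransfected M1-like macrophages of the reprogramming experiment and was not called (log2 fold change -0.38 ± 0.24, adjusted p = 0.178). Me1 had 1.54, 1.18 and 1.43 against 0.305, 0.201 and 0.568 CPM there (log2 fold change -1.91 ± 0.54, adjusted p = 0.00298), lower in each M1-like sample, at levels of few reads. Interferon-stimulated genes, given as a check of the stimulus, were higher in M1-like macrophages for 10 of 10 genes in the polarization experiment (median log2 fold change 7.67), for 10 of 10 untransfected (3.05) and for 1 of 10 after mock transfection, where 5 were lower (-0.44). Markers of several other cells were also lower in M1-like mock than in M0 mock macrophages. These were 4 of 4 for fibroblasts, 4 of 4 for B cells (0.979 to 2.36 against 6.01 to 33.2 CPM summed), 3 of 4 for mesothelium (0.295 to 0.813 against 10.2 to 17.5 CPM) and Siglecf for eosinophils. The 4 neutrophil markers went the other way, with sums of 7.56 to 11.9 against 3.49 to 5.68 CPM and 3 of the 4 at 0 in each group. Their sums were 9.37 to 14 CPM in M1-like and 5.95 to 8 CPM in M0 macrophages of the polarization experiment. In the polarization experiment 3 of 4 fibroblast markers were lower, Dcn was higher, and no B cell marker was called. There the 4 eosinophil markers summed to 15.6 to 17.1 CPM in M0 and 0.416 to 0.919 CPM in M1-like macrophages, with Siglecf lower, and the 4 dendritic cell markers to 2.43 to 5.2 against 29 to 39.8 CPM, with Ccr7, Xcr1 and Zbtb46 higher. The part of these cells in the results was not tested.

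**Figure D3:**
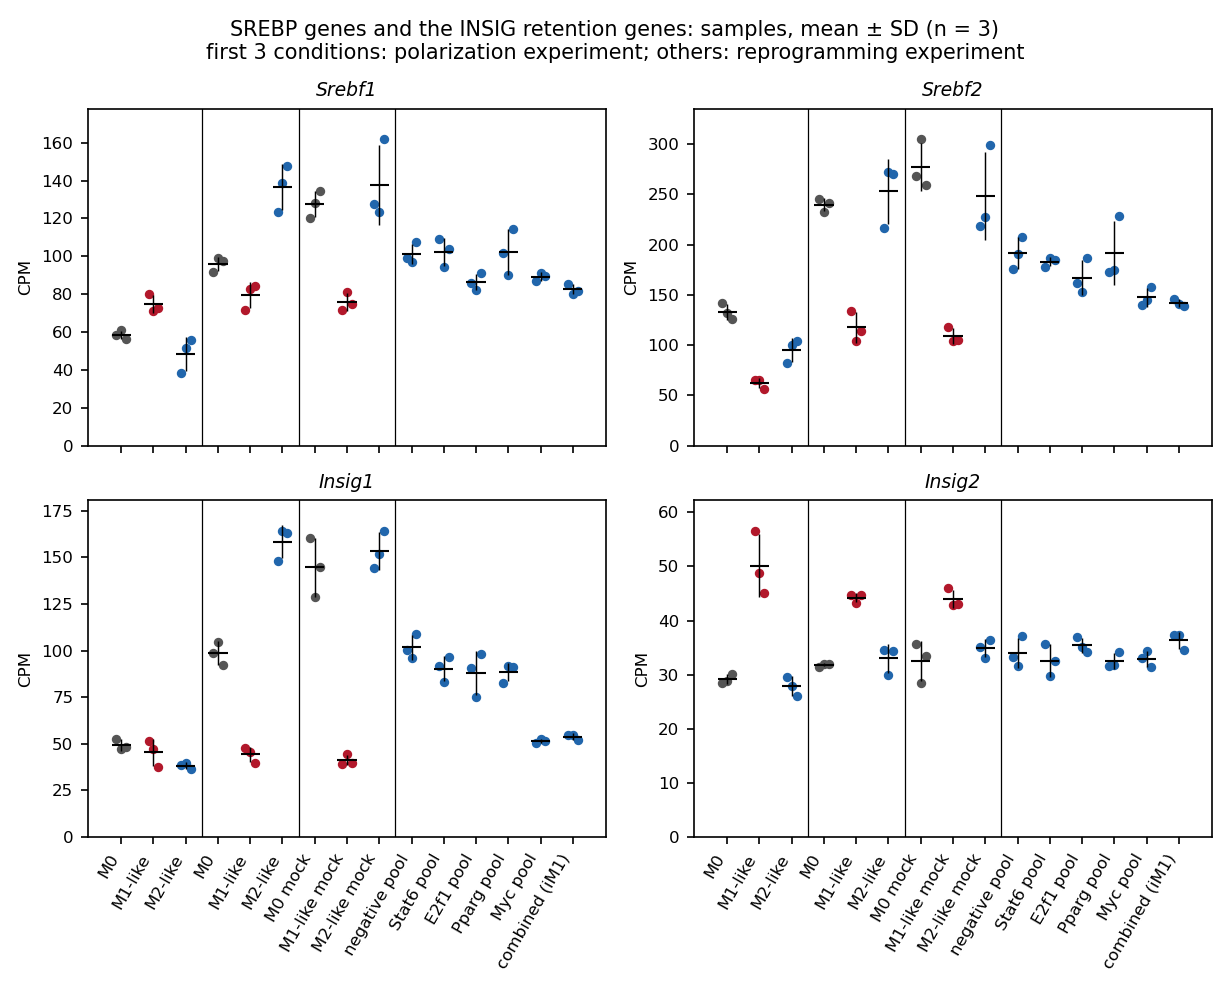
CPM of Srebf1, Srebf2, Insig1 and Insig2 in each sample (points) of all 15 conditions, with the mean (horizontal line) and SD (vertical bar) of n = 3, M0 in grey, M1-like in red and M2-like with all siRNA conditions in blue. Insig2 is higher in all M1-like groups, and Insig1 lies between 39.4 and 54.9 CPM in the M1-like, Myc pool and combined pool samples of the reprogramming experiment.

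Srebf2 was lower in M1-like macrophages throughout, with 268, 305 and 259 CPM in M0 mock and 118, 104 and 106 CPM in M1-like mock macrophages (log2 fold change -1.34 ± 0.11, adjusted p = 8.59e-12). Srebf1 had 120.2, 128 and 134 CPM in M0 mock and 71.9, 81.2 and 74.9 CPM in M1-like mock samples (log2 fold change -0.75 ± 0.090, adjusted p = 1.69e-08), so that it was lower here and higher in the polarization experiment. The samples of the 2 groups did not overlap for either gene. Scap (75.0, 89.7 and 69.4 against 55.5, 60.5 and 62.0 CPM) was lower by 0.40 log2 units, which was no longer called with total counts (-0.184). Insig1 fell from 160.4, 129 and 145 to 39.4, 44.3 and 39.9 CPM (log2 fold change -1.81 ± 0.090, adjusted p = 1.75e-17). Insig2 rose from 35.7, 28.4 and 33.4 to 45.9, 42.9 and 43.1 CPM (log2 fold change 0.44 ± 0.077, adjusted p = 1.26e-05). The M1-like samples thus lay apart from M0 in both genes, below for Insig1 and above for Insig2. Stard4 fell by 1.54 log2 units.

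IL-4 for 24 h had small effects on these genes in the polarization experiment. There 10 of 33 were lower and 2 higher in M2-like than in M0 macrophages, while 27.9% of all genes were called (13.5% higher, 14.4% lower). Fasn had 17.3, 16.6 and 17.4 CPM in M0 and 8.31, 9.90 and 10.8 CPM in M2-like macrophages (log2 fold change -0.82 ± 0.094, adjusted p = 7.92e-05). Fads1 had 31.8, 31.1 and 33.5 CPM in M2-like macrophages (log2 fold change -0.72 ± 0.067, adjusted p = 1.61e-05), below its M0 samples. Tm7sf2 (5.18, 4.42 and 3.99 against 2.48, 2.60 and 3.03 CPM, log2 fold change -0.74 ± 0.13, adjusted p = 0.00185), Scap (-0.54), Srebf2 (-0.48), Fdft1 (-0.43), Sc5d (-0.39), Insig1 (-0.37), Msmo1 (-0.35) and Lss (-0.25) were the other lower genes. Scd2 rose from 29.3, 28.6 and 25.6 to 51.1, 42.3 and 38.6 CPM (log2 fold change 0.66 ± 0.18, adjusted p = 0.0186), and Dhcr7 from 42.0, 37.3 and 38.3 to 43.3, 50.8 and 51.1 CPM (log2 fold change 0.30 ± 0.076, adjusted p = 0.0116). In both genes every M2-like sample was above every M0 sample. No gene from acetyl-CoA to farnesyl diphosphate was called.

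In untransfected macrophages of the reprogramming experiment, by contrast, 21 of 34 genes were higher and none lower in M2-like than in M0 macrophages, against 19.9% of all genes called, 10.7% higher and 9.19% lower (53.8% of the called genes, 27.7% with total counts, where 21 members were still called). Whether this differs from the polarization experiment was not tested. The desaturases led. Scd1 had 5.34, 7.88 and 5.25 CPM in M0 and 61.5, 65.9 and 60.2 CPM in M2-like macrophages, 10.1-fold higher (log2 fold change 3.33 ± 0.24, adjusted p = 5.2e-12). Scd2 rose from 43.6, 46.8 and 42.0 to 334, 419.6 and 391 CPM (log2 fold change 3.11 ± 0.24, adjusted p = 4.2e-11). Fads2 rose from 1.46, 0.931 and 0.682 to 3.79, 7.73 and 6.35 CPM (log2 fold change 2.55 ± 0.37, adjusted p = 6.21e-06). All M2-like samples were above all M0 samples in these genes. Fasn rose from 44.1, 39.9 and 37.6 to 114, 153 and 147 CPM (log2 fold change 1.77 ± 0.17, adjusted p = 3.69e-09), with Fads1 (0.74) and Acaca (0.60) behind it.

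Among the sterol genes, 5 of 7 up to farnesyl diphosphate and 7 of 11 from squalene on were called higher, each by less than 1 log2 unit, and none was lower. Acat2 had 10.03, 9.68 and 8.12 CPM in M0 and 16.9, 16.8 and 16.1 CPM in M2-like macrophages (log2 fold change 0.84 ± 0.18, adjusted p = 0.000889), Lss 34.1, 32.6 and 37.0 against 55.4, 63.7 and 65.6 CPM (log2 fold change 0.83 ± 0.12, adjusted p = 2.44e-06), and Cyp51 55.0, 57.6 and 56.3 against 86.4, 95.4 and 109 CPM (log2 fold change 0.78 ± 0.16, adjusted p = 0.000409). The groups were separate at these steps. Of the control genes, Insig1 (99.0, 105 and 92.1 against 148, 164 and 163 CPM, log2 fold change 0.68 ± 0.087, adjusted p = 5.84e-07) and Srebf1 (91.7, 99.1 and 97.3 against 124, 139 and 148 CPM, log2 fold change 0.51 ± 0.090, adjusted p = 9.48e-05) rose. Srebf2 (246, 233 and 241 against 216, 272 and 270.5 CPM), Scap (69.4, 64.6 and 67.8 against 53.7, 61.7 and 64.9 CPM) and Insig2 (31.5, 32.0 and 32.1 against 34.6, 30.0 and 34.4 CPM) were not called.

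Mock transfected macrophages were also set against untransfected ones. In M0 macrophages 17 of 34 genes were higher and none lower with the reagent alone (20.4% of all genes called, 8.66% lower and 11.7% higher, which is 57.5% of the calls and 33% with total counts). Scd2 had 43.6, 46.8 and 42.0 CPM without and 189.6, 138 and 274 CPM with the reagent (log2 fold change 2.18 ± 0.24, adjusted p = 2.72e-08). Scd1 rose from 5.34, 7.88 and 5.25 to 26.6, 21.6 and 33.4 CPM (log2 fold change 2.13 ± 0.24, adjusted p = 6.63e-08) and Fasn from 44.1, 39.9 and 37.6 to 106, 107 and 144 CPM (log2 fold change 1.56 ± 0.17, adjusted p = 2.97e-08). In all 3 the groups were separate, as they were for Fads2 (2.13). Acss2 (0.75), Acat2 (0.72), Mvd (0.71), Lss (0.69), Sc5d (0.56), Insig1 (0.55) and Srebf1 (0.41) rose by less. All 10 interferon-stimulated genes rose with the reagent too (median log2 fold change 3.63), and their part in the result was not tested. The untransfected samples were shared with the IL-4 comparison, so the lists are not independent. Mock macrophages were harvested 48 h after transfection, whereas the labels give no time for the untransfected ones. Culture time, if it differed, and reagent cannot be told apart.

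In M1-like macrophages no member was called with the reagent, and none of 14172 genes was called (0%, and no member at an unadjusted p-value under 0.05 with edgeR or DESeq2). In M2-like macrophages no member was called either (1.77% of all genes called, 1.67% higher and 0.0988% lower, and 3 members at an unadjusted p-value under 0.05 with each tool). Interferon-stimulated genes were higher with the reagent for 9 of 10 genes in M2-like macrophages (median 4.09) and for none of 10 in M1-like macrophages (0.17). Between M2-like mock and M0 mock macrophages 3 genes were higher and 1 lower (3.83% of all genes called, 2.19% higher and 1.64% lower). Scd1 (26.6, 21.6 and 33.4 against 80.8, 73.2 and 90.0 CPM, log2 fold change 1.58 ± 0.20, adjusted p = 4.76e-06), Scd2 (189.6, 138 and 274 against 333, 341 and 425 CPM, log2 fold change 0.87 ± 0.22, adjusted p = 0.0220) and Hmgcs1 (0.42) were higher. Scap, with 75.0, 89.7 and 69.4 against 54.4, 52.7 and 70.8 CPM, was lower (-0.40), and its groups overlapped. Without M0 mock replicate 2 only 1 of the 4 was called.

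The difference in the IL-4 effect with and without transfection was tested as an interaction. For 12 of 34 genes the M2-like against M0 difference was more negative after mock transfection and for none more positive (5.66% of all genes called, 2.41% positive and 3.25% negative), led by Scd2 (difference of the log2 fold changes -2.24 ± 0.32), Fads2 (-2.02), Scd1 (-1.75) and Fasn (-1.60). The M1-like against M0 difference was more negative after mock transfection for 9 genes (9.07% of all genes called, 3.22% positive and 5.85% negative), led by Scd1 (-2.73 ± 0.50), and all 10 interferon-stimulated genes differed in that direction too (median -3.41). With total counts the share of positive differences among all called genes went from 35.5% to 65.6% in the M1-like contrast and from 42.5% to 68.4% in the M2-like contrast. Both contrasts contain the M0 and M0 mock samples, whose own difference is given above. For M1-like against M2-like macrophages no member differed with transfection (1.13% of all genes called, 0.0353% positive and 1.09% negative, and 3 members at an unadjusted p-value under 0.05 with edgeR and with DESeq2).

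The next comparisons ask what knocking down the transcription factors predicted to hold the M2-like state did to M2-like macrophages. With the negative siRNA pool, 24 of 34 genes were lower than in M2-like mock macrophages and none was higher, against 11.7% of all genes called, 6.67% higher and 5.03% lower. Scd2 had 333, 341 and 425 CPM in mock and 142, 118 and 238 CPM with the negative pool (log2 fold change -1.14 ± 0.22, adjusted p = 0.000608). Scd1 fell from 80.8, 73.2 and 90.0 to 40.7, 24.9 and 56.9 CPM (log2 fold change -0.99 ± 0.20, adjusted p = 0.000709) and Fasn from 117, 113 and 171 to 60.6, 63.2 and 84.2 CPM (log2 fold change -0.94 ± 0.17, adjusted p = 0.000149). All samples with the pool lay under all mock samples in these 3 genes. Elovl6 (-0.94), Tm7sf2 (-0.80), Acss2 (-0.66), Mvd (-0.63) and Stard4 (-0.63) followed. Of the control genes, Insig1 (144, 152 and 164 against 100.1, 96.2 and 109 CPM, log2 fold change -0.59 ± 0.086, adjusted p = 1.21e-05), Srebf1 (128, 123 and 162 against 98.9, 97.2 and 107 CPM) and Srebf2 (219, 227 and 299 against 176, 190.4 and 208 CPM) were lower. Scap and Insig2 were not called. Without M2-like mock replicate 3, in which 31 of the 34 genes had their highest mock level, 11 genes were called. With the pool 9 of 10 interferon-stimulated genes were higher (median 1.91), and eosinophil markers summed to 33.5 to 38.8 CPM against 18.7 to 19.9 CPM in mock, of which Siglecf rose. Their part in the result was not tested.

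**Figure D4:**
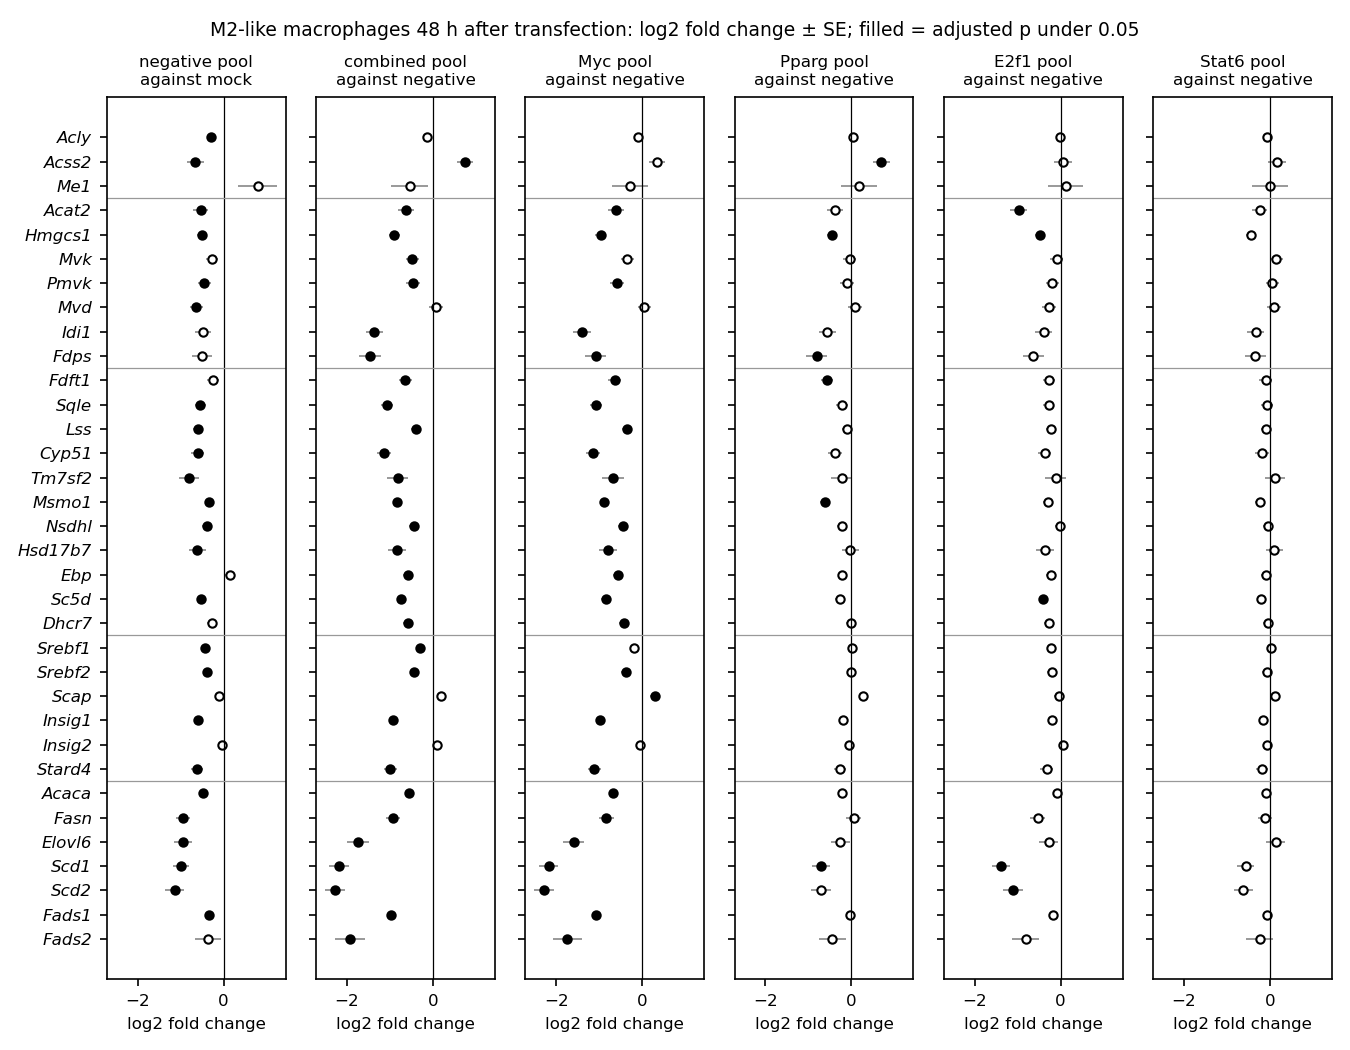
log2 fold change (points) ± SE (lines) of the 34 genes in M2-like macrophages, for the negative siRNA pool against mock and for each targeted pool against the negative pool, n = 3 per group, filled where the adjusted p-value was under 0.05. The combined and Myc panels show 28 and 26 lower genes, the Stat6 panel shows none.

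The targets themselves were lower with their pools. Relative to the negative pool, E2f1 was at 25.2 ± 4.05% with its own and 60.4 ± 2.01% with the combined pool, Myc at 38.0 ± 8.01% and 39.6 ± 3.20%, Pparg at 21.9 ± 2.57% and 28.3 ± 2.25%, and Stat6 at 27.3 ± 5.79% and 54.0 ± 4.82% (mean ± SD, n = 3). Pparg was also at 65.2 ± 5.72% with the Myc, 79.6 ± 3.92% with the E2f1 and 78.4 ± 1.26% with the Stat6 pool. With single pools against another factor, E2f1, Myc and Stat6 had means of 98.3% to 123.1%. The part of the lower Pparg in the results of the Myc, E2f1 and Stat6 pools was not tested. In M1-like mock macrophages Myc was at 17.4 ± 3.90% and Pparg at 16.8 ± 1.59% of the negative pool. E2f1 was at 143.1 ± 18.7% and Stat6 at 97.1 ± 3.48% there.

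The combined pool lowered 28 genes and raised 1 relative to the negative pool (26.5% of all genes called, 13.9% lower and 12.5% higher). The share of higher genes among all called genes was 47.4%, and 75.7% with total counts, where 27 members were called. All 7 fatty acid genes and all 11 genes from squalene to cholesterol were lower. Scd2 had 142, 118 and 238 CPM with the negative and 32.4, 31.7 and 39.0 CPM with the combined pool (log2 fold change -2.27 ± 0.24, adjusted p = 1.9e-08). Scd1 fell from 40.7, 24.9 and 56.9 to 9.09, 9.35 and 8.51 CPM (log2 fold change -2.19 ± 0.23, adjusted p = 1.11e-08), Fads2 from 3.67, 4.94 and 6.52 to 1.02, 1.03 and 1.95 CPM (log2 fold change -1.92 ± 0.35, adjusted p = 0.000107). No sample with the combined pool reached a sample with the negative pool in these genes. Elovl6 had 4.39, 3.47 and 4.23 against 1.21, 0.978 and 1.46 CPM (log2 fold change -1.73 ± 0.25, adjusted p = 4.19e-06), also apart. Without negative pool replicate 3, in which 32 of the 34 genes had their highest level with that pool, 23 members were called.

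Among the sterol genes, Fdps fell from 5.54, 5.27 and 7.32 to 2.42, 1.85 and 2.31 CPM (log2 fold change -1.47 ± 0.26, adjusted p = 5.42e-05), Idi1 from 21.1, 20.6 and 28.3 to 8.26, 9.45 and 9.61 CPM (log2 fold change -1.36 ± 0.21, adjusted p = 7.92e-06), and Hmgcs1 from 89.9, 83.2 and 109.9 to 47.6, 49.4 and 55.6 CPM (log2 fold change -0.89 ± 0.12, adjusted p = 1.67e-06). Cyp51 (48.8, 51.0 and 64.3 against 22.1, 24.02 and 28.5 CPM, log2 fold change -1.14 ± 0.16, adjusted p = 3.56e-06) and Sqle (51.6, 47.5 and 60.8 against 24.5, 25.4 and 26.1 CPM, log2 fold change -1.07 ± 0.14, adjusted p = 5.75e-07) were the largest changes among the late steps. All of these had separate groups. Mvd was not called (0.071). Fibroblast markers summed to 214 to 350 CPM with the combined and 246 to 358 CPM with the negative pool, and 5 of 10 interferon-stimulated genes were higher with the combined pool (median 0.65). Their part in the result was not tested.

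Of the control genes, Insig1 fell from 100.1, 96.2 and 109 to 54.9, 54.8 and 51.9 CPM (log2 fold change -0.92 ± 0.089, adjusted p = 3.13e-09), and Stard4 from 26.7, 25.5 and 36.4 to 14.4, 13.9 and 16.5 CPM (log2 fold change -0.99 ± 0.15, adjusted p = 8.46e-06). Srebf2 had 176, 190.4 and 208 against 146, 141 and 139 CPM (log2 fold change -0.43 ± 0.11, adjusted p = 0.00453), Srebf1 98.9, 97.2 and 107 against 85.6, 80.3 and 81.9 CPM (log2 fold change -0.29 ± 0.090, adjusted p = 0.0147). Each of the 4 genes was lower in all samples with the combined pool. Scap (55.6, 57.2 and 52.6 against 68.6, 64.9 and 54.9 CPM) and Insig2 (33.3, 31.7 and 37.1 against 37.2, 37.3 and 34.5 CPM) were not called. Acss2 went against its neighbours, from 4.63, 5.003 and 6.29 to 9.09, 7.93 and 9.79 CPM (log2 fold change 0.75 ± 0.19, adjusted p = 0.00438).

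The Myc pool alone lowered 26 genes and raised 1 (29.6% of all genes called, 15.6% lower and 13.9% higher, and 47.2% of the calls higher, 74.3% with total counts). Scd2 had 37.0, 26.9 and 38.5 CPM (log2 fold change -2.29 ± 0.24, adjusted p = 1.47e-08), Scd1 10.3, 9.56 and 7.199 CPM (log2 fold change -2.17 ± 0.22, adjusted p = 9.12e-09) and Fads2 1.18, 1.63 and 1.74 CPM (log2 fold change -1.74 ± 0.34, adjusted p = 0.000218). These samples all lay under those with the negative pool. Idi1 (8.39, 9.10 and 9.12 CPM, log2 fold change -1.40 ± 0.20, adjusted p = 3.97e-06), Cyp51 (26.7, 21.5 and 26.4 CPM, log2 fold change -1.14 ± 0.16, adjusted p = 2.74e-06) and Stard4 (14.1, 12.5 and 14.4 CPM, log2 fold change -1.12 ± 0.15, adjusted p = 1.08e-06) were lower likewise. Insig1 had 50.5, 52.4 and 51.5 CPM (log2 fold change -0.98 ± 0.089, adjusted p = 7.97e-10) and Srebf2 139.8, 145 and 158 CPM (log2 fold change -0.38 ± 0.11, adjusted p = 0.0110). Scap was the higher gene (64.9, 70.4 and 67.0 CPM, log2 fold change 0.29 ± 0.10, adjusted p = 0.0267), while Srebf1 (86.7, 91.1 and 89.9 CPM, -0.18) and Insig2 (33.1, 34.3 and 31.4 CPM, -0.048) were not called. Without negative pool replicate 3, 20 members were called with the Myc pool. Compared directly, the combined and the Myc pool differed in no member, while 7 of 14172 genes were called (0.0494%, 0% higher and 0.0494% lower). At an unadjusted p-value under 0.05, 1 member differed with edgeR and 1 with DESeq2. For 31 of the 34 genes the log2 fold change between the 2 pools was within 0.2, and the largest was that of Acss2, at 0.40 ± 0.19 (SE), higher with the combined pool.

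Against the negative pool, 6 members were called with the Pparg, 5 with the E2f1 and 0 with the Stat6 pool. With M2-like mock macrophages as the reference 26, 29 and 23 were called, and of all 14172 genes 2441, 1648 and 1624. With the replicate block and the negative pool as reference 10 were called for Pparg and 1 for Stat6 (1168 and 380 of all genes). With the Pparg pool 5 genes were lower and 1 higher (5.74% of all genes called, 2.71% higher and 3.03% lower). Fdps (3.79, 3.31 and 3.31 CPM, log2 fold change -0.81 ± 0.24, adjusted p = 0.0430), Scd1 (26.2, 24.2 and 25.0 CPM, log2 fold change -0.71 ± 0.21, adjusted p = 0.0360), Msmo1 (68.8, 73.5 and 70.3 CPM against 106, 97.5 and 122 CPM with the negative pool, log2 fold change -0.61 ± 0.11, adjusted p = 0.000528), Fdft1 (-0.56) and Hmgcs1 (-0.45) were lower. Scd1 overlapped with the negative pool, in which it ranged widely, and Msmo1 did not. Acss2 rose to 8.01, 7.52 and 10.5 CPM (log2 fold change 0.70 ± 0.20, adjusted p = 0.0292). Without Pparg pool replicate 1 only 2 of the 6 genes were called. With the E2f1 pool 5 genes were lower (0.91% of all genes called, 0.649% lower and 0.261% higher, which is 28.7% of the calls and 40% with total counts), namely Scd1 (18.1, 11.02 and 17.9 CPM, log2 fold change -1.39 ± 0.21, adjusted p = 0.000499), Scd2 (81.0, 53.9 and 96.2 CPM, log2 fold change -1.11 ± 0.23, adjusted p = 0.00868), Acat2 (5.52, 4.56 and 6.38 CPM, log2 fold change -0.98 ± 0.19, adjusted p = 0.00535), Hmgcs1 (-0.48) and Sc5d (-0.41). In Scd1, Scd2 and Acat2 all samples were under those of the negative pool. Without E2f1 pool replicate 2 only 1 gene was called. With the Stat6 pool no member was called by edgeR (1.51% of all genes called, 0.466% higher and 1.04% lower), 1 was called by DESeq2, and 4 had an unadjusted p-value under 0.05 with each tool. Scd2 had 109, 90.2 and 126 CPM (log2 fold change -0.62 ± 0.23, adjusted p = 0.191). The pools share the negative pool as reference, so their lists are not independent. Of the control genes, Srebf1, Srebf2, Scap, Insig1 and Insig2 were not called with the Pparg, E2f1 or Stat6 pool.

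**Figure D5:**
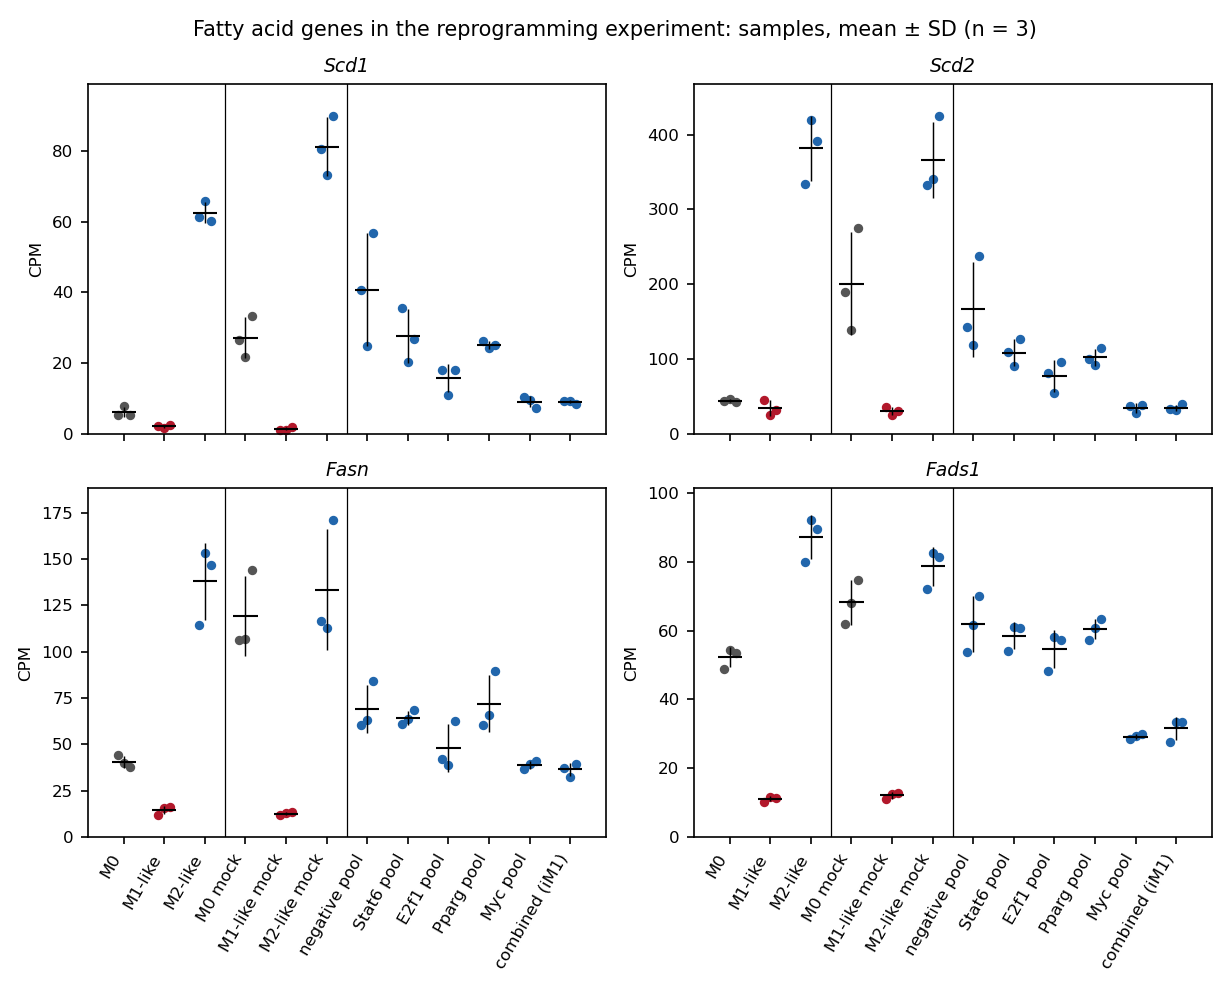
CPM of Scd1, Scd2, Fasn and Fads1 in each sample (points) of the 12 conditions of the reprogramming experiment, with the mean (horizontal line) and SD (vertical bar) of n = 3, M0 in grey, M1-like in red and M2-like with all siRNA conditions in blue. Levels step down from M2-like mock to the negative pool and again to the Myc and combined pools, which lie above M1-like macrophages in Scd1, Fasn and Fads1.

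iM1 macrophages were compared with M1-like mock macrophages, the state they were meant to approach. There 15 of 34 genes were higher and 5 lower in iM1 macrophages (52.9% of all genes called, 27.2% higher and 25.6% lower), with a median of 0.10. Scd1 had 9.09, 9.35 and 8.51 CPM in iM1 and 1.09, 1.13 and 1.80 CPM in M1-like mock macrophages (log2 fold change 2.76 ± 0.33, adjusted p = 2.43e-08). Fasn had 37.5, 32.7 and 39.5 against 11.8, 12.8 and 13.5 CPM (log2 fold change 1.52 ± 0.19, adjusted p = 4.33e-08), and Fads1 27.8, 33.5 and 33.6 against 11.04, 12.4 and 12.9 CPM (log2 fold change 1.39 ± 0.10, adjusted p = 7.51e-13). The groups were separate in all 3. Scd2 was not called (32.4, 31.7 and 39.0 against 35.1, 25.4 and 29.7 CPM, log2 fold change 0.19 ± 0.24, adjusted p = 0.528). Elovl6 was lower in iM1 macrophages, with 1.21, 0.978 and 1.46 against 2.66, 2.01 and 2.73 CPM (log2 fold change -1.02 ± 0.26, adjusted p = 0.00161), and so was Tm7sf2, with 2.10, 2.77 and 3.22 against 8.54, 5.55 and 7.08 CPM (log2 fold change -1.38 ± 0.24, adjusted p = 1.72e-05). Their samples did not overlap either.

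In the supply of building blocks, Acss2 (log2 fold change 0.73 ± 0.19, adjusted p = 0.00177) and Me1 (1.25) were higher in iM1 macrophages.

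Among the sterol genes, Idi1 (log2 fold change 0.80 ± 0.23, adjusted p = 0.00458), Hmgcs1 (0.56), Fdft1 (0.75), Cyp51 (0.49), Dhcr7 (0.35) and Lss (0.29) were higher in iM1 macrophages. Pmvk (-0.62) and Ebp (-0.53) were lower. Of the control genes, Srebf2 (log2 fold change 0.38 ± 0.11, adjusted p = 0.00536) and Insig1 (0.39) were higher and Insig2 (log2 fold change -0.27 ± 0.076, adjusted p = 0.00318) was lower in iM1 macrophages. Insig2 had 37.2, 37.3 and 34.5 CPM in iM1 and 45.9, 42.9 and 43.1 CPM in M1-like mock macrophages, and Srebf2 146, 141 and 139 against 118, 104 and 106 CPM. Neither gene had overlapping groups. Srebf1 (0.12) and Scap (0.081) were not called. Fibroblast markers summed to 214 to 350 CPM in iM1 against 20.1 to 39.2 CPM in M1-like mock macrophages, interferon-stimulated genes were higher in iM1 for 10 of 10 genes (median 2.18), and their part in these differences was not tested.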

How the data were processed

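RNA of peritoneal macrophages was measured by RNA-seq in 54 libraries. The authors deposited raw read counts per gene, whole numbers made with Trimmomatic, TopHat2 (mm10) and featureCounts. Versions, annotation release and strand setting are not given in the sources used here. The study used DESeq2. From these counts, technical replicates were summed, genes were filtered with filterByExpr (minimum count 10, minimum total 15, leaving 16110 genes for polarization and 14172 for reprogramming) and tested with edgeR 4.0.16 in R 4.3.3 (quasi-likelihood, TMM, Benjamini-Hochberg), with DESeq2 1.42.0 as an alternative. SE is the log2 fold change over the root of F. The test was checked on simulated counts. The same mice gave all conditions of the polarization experiment, and deviations of same-mouse samples correlated with a median r of 0.25 over 9 pairs (lowest -0.0559), against -0.135 over 18 pairs of different mice (10755 genes). Technical replicates agreed within a chi-square of 1.07 to 1.10 per gene, mice within 5.86 to 96.6 and replicates of the reprogramming experiment within 4.48 to 23.0. The 18 single libraries of the polarization experiment held 19714994 to 29880494 counts. The 34 genes and all gene lists were chosen with earlier results of these data known, and every member is given in a count. Sample values were given for up to 3 members per role and direction with the largest called changes, for Srebf1, Srebf2, Scap, Insig1 and Insig2, and for members that went against their role, and genes of other lists were given as counts, with up to 4 named by size. Motif letters were searched in RefSeq promoters. Other settings were normalization (RLE, total counts), filters, replicate block, reference and leaving out each replicate.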

Additional observations from a re-analysis of the deposited data

Results flagged for a closer look

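The effect of polarization differed between mock transfected and untransfected macrophages for the genes below, by the interaction term of the same edgeR model (Benjamini-Hochberg adjusted p under 0.05, n = 3 per group). Values are the log2 fold change after mock transfection minus that without it. For M1-like against M0 macrophages the difference was -2.73 for Scd1, -2.35 for Scd2, -1.75 for Fasn, -0.92 for Mvd, -0.82 for Lss, -0.66 for Insig1, -0.60 for Sqle, -0.53 for Sc5d and -0.47 for Srebf1. For M2-like against M0 macrophages it was -2.24 for Scd2, -2.02 for Fads2, -1.75 for Scd1, -1.60 for Fasn, -0.82 for Acat2, -0.75 for Lss, -0.65 for Sqle, -0.61 for Sc5d, -0.60 for Insig1, -0.54 for Dhcr7, -0.53 for Fads1 and -0.53 for Msmo1. Both sets contain the M0 and M0 mock samples and are not independent. No group had 4 or more samples, so no sample was examined as standing apart from its group.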

How the results depend on the processing

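Over the members called in any comparison, 364 values were recomputed under the alternatives. Of 2673 such values 59 were no longer called and 6 changed sign, all 6 with total counts: Mvd (-0.039) and Srebf1 (-0.077) between M1-like and M0, and Acss2 (-0.032), Pmvk (-0.15), Mvd (-0.14) and Insig1 (-0.19) between M1-like and M2-like macrophages of the polarization experiment. With 1 replicate left out, 247 of 2310 values were no longer called and none changed sign. In the following comparisons the number of called members moved by more than 1.5 times. With a log2 fold change of at least 1 required, it was 17 (M1-like against M0), 0 (M2-like against M0) and 14 (M1-like against M2-like) in the polarization experiment, 16 and 4 for untransfected M1-like and M2-like against M0, 1 for M2-like against M0 mock, 4 for mock against untransfected M0, 1 for the negative pool, 8 for the combined, 10 for the Myc, 0 for the Pparg and 2 for the E2f1 pool, 7 for iM1 against M1-like mock, and 3 and 4 for the interactions of M1-like and M2-like with M0. With only the compared groups in the model it was 1 for M2-like against M0 mock and 3 for the E2f1 pool. Without a filter it was 2 for mock in M2-like macrophages, 3 for the Stat6 pool and 1 for the M1-like against M2-like interaction, and with DESeq2 1 for the Stat6 pool. With M2-like mock as the reference it was 26 for the Pparg, 29 for the E2f1 and 23 for the Stat6 pool. Of all 14172 genes 2441, 1648 and 1624 were called with that reference. The cause of these shifts was not tested. Leaving out 1 replicate gave 1 to 4 for M2-like against M0 mock, 11 to 24 for the negative pool (lowest without M2-like mock replicate 3), 2 to 5 for Pparg, 1 to 6 for E2f1 and 0 to 2 for Stat6.

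Fitted with the replicate number as a block, the number of called members was 10 for the Pparg and 1 for the Stat6 pool. Of all 14172 genes 1168 and 380 were called there. No other member count moved by over 1.5 times. In the reprogramming experiment same-numbered samples shared only a number by the labels (median r 0.183 over 198 pairs, lowest -0.249, against -0.0829 over 396 pairs of different number, 10223 genes), while 34 of 36 samples correlated best with their own number. Fads2 and Me1 have few reads per library, which limits the precision of their fold changes.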

Other observations

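Genes around the 34 members, from lists chosen with earlier results of these data known, also differed (edgeR's quasi-likelihood test, Benjamini-Hochberg adjusted over all genes). Among 12 genes of oxysterol synthesis and LXR, of which 11 were tested, M1-like macrophages of the polarization experiment had 8 higher and 2 lower than M0, where 35.4% of all genes were called higher and 37.5% lower. Ch25h, which makes 25-hydroxycholesterol, had the largest log2 fold change (8.51), with Abca1, a cholesterol exporter (2.92), and Nr1h2, an LXR (1.05), also higher, and Cyp27a1, the sterol 27-hydroxylase, lower (-2.90). In M1-like mock against M0 mock macrophages 4 of these genes were higher and 8 lower (all genes, 30.3% higher and 30% lower), with Soat2 (3.03) and Ch25h (2.64) higher and Cyp7b1 (-3.16) and Acsl3 (-1.84) lower. In untransfected M2-like against M0 macrophages 8 were higher and 1 lower (all genes, 10.7% higher and 9.19% lower), led by Abca1 (2.20) and Acsl3 (1.59), with Soat2 lower (-2.29). With the combined pool 5 were lower and none higher than with the negative pool (all genes, 13.9% lower and 12.5% higher).

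Of 9 genes of SREBP cleavage and INSIG turnover, 6 were higher and 2 lower with LPS and IFNγ in the polarization experiment, against 35.4% and 37.5% of all genes. Rnf139 (1.06) and Rnf145 (0.97), ubiquitin ligases, were higher, whereas both SREBP proteases, Mbtps2 (-0.94) and Mbtps1 (-0.87), were lower. Of 24 other fatty acid genes, 21 were tested there and 12 were lower and 6 higher (37.5% and 35.4% of all genes), with Lpin1 (-3.39), Idh1 (-3.26), Elovl7 (-2.36) and Mid1ip1 (-2.33) the largest changes. In untransfected M2-like macrophages 7 of 19 were higher and none lower (10.7% and 9.19% of all genes), and with the combined pool 9 were lower and 1 higher (13.9% and 12.5% of all genes). A list of 12 genes held other isoprenoid branches and also Cyb5r3, Erg28 and Lbr, which serve the sterol path itself. Of the 12, 7 were higher and 1 lower in M1-like macrophages of the polarization experiment (35.4% and 37.5% of all genes). None was called in untransfected M2-like macrophages (19.9% of all genes called), and 1 was higher and 2 lower with the combined pool (12.5% and 13.9% of all genes).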
